A study of Bos taurus with 12 samples.

Results

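The 10 genes described here encode lysosomal proteases and lysosome membrane proteins: the cathepsins CTSB, CTSD, CTSH, CTSK, CTSL, CTSS and CTSZ, legumain (LGMN), and the membrane glycoproteins LAMP1 and LAMP2. They were named by symbol, and a probe was taken as a member where its RefSeq accession mapped to one of these symbols. This gave 25 probes for the 10 genes, among 26832 named probes for 12639 genes and 43653 probes in all. RNA came from mammary gland (MG) biopsies of 12 multiparous Holstein cows in early lactation (24 ± 3 days in milk), 1 array per cow. The 6 control cows (CONT) had free access to a lactation diet. For 4 d, the 6 restricted cows (REST) were fed a version of this diet in which barley straw made up 48% of dry matter. Every cow of both groups received 50 µg of lipopolysaccharide (LPS), the bacterial endotoxin, into a healthy rear gland on day 3, and was biopsied 24 h later. The comparison is therefore between diets in challenged glands, and no unchallenged gland was analysed here.

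Lysosomes are acidic compartments in which cathepsins, made as inactive proenzymes, cleave proteins delivered by endocytosis, phagocytosis and autophagy. CTSB, CTSH, CTSK, CTSL, CTSS and CTSZ are cysteine proteases of the papain type, CTSD is an aspartic protease, and LGMN cleaves after asparagine and helps to mature other cathepsins. LAMP1 and LAMP2 are heavily glycosylated proteins of the lysosomal membrane. Macrophages and other phagocytes are rich in these proteins, and the secretory epithelium of the MG has lysosomes too.

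Each of the 25 probes gave a signal well above background in all 12 cows, and none was saturated. Values are log2 processed signals minus the array's own 75th percentile, so a value of 0.00 lies at that percentile. A level of 1 probe cannot be set against that of another probe, and the brightest probe of a gene (highest mean over the 12 cows) stands for it unless stated. The 75th percentile itself was an intensity of 577 to 1184 in CONT and of 387 to 1082 in REST. The arrays lay on 3 slides of 4, each slide with cows of both diets. Slide 1 (CONT cows 1076, 1024 and 0055 and REST cow 0078) had negative control signals of 37.7 to 58.2, against 17.4 to 19.96 on the other 2 slides. Differences were therefore also computed with slide as a block and within each slide. The milk protein gene CSN1S1 was well above background on every array, as is usual for lactating MG, with a mean of 9.03 ± 0.41 (SD, n = 6) in CONT and 9.40 ± 0.54 in REST.

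None of the 10 genes differed by diet in the limma test (Benjamini-Hochberg over all 43653 probes). The lowest adjusted p of a member probe was 0.999918, and the percentage of all probes called was 0.0. At an unadjusted p under 0.05, 0 of the 10 genes and 0 of the 25 probes were called, where 2.64% of the brightest probes of all named genes and 2.62% of all probes passed. The groups overlapped for all 10 genes, and 0.15% of the brightest probes of named genes had groups that did not. The mean was higher in REST for 7 of the 10 genes and lower for 3. Over all named genes 43.5% were higher in REST. The median log2 difference (REST minus CONT) was 0.02 over the 10 genes, against -0.03 over the named genes. With slide as a block that of the 10 genes was 0.16. For 8 genes the 95% interval of the brightest probe lay inside a 2-fold change in both directions, and CTSL and CTSS were the exceptions. This depends on the probe for CTSH, whose other probes had log2 intervals reaching past 2-fold (-1.13 to 0.88 and -0.73 to 1.003). With 6 cows against 6, the smallest p that the exact permutation test allows is 0.00216.

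**Figure D1:**
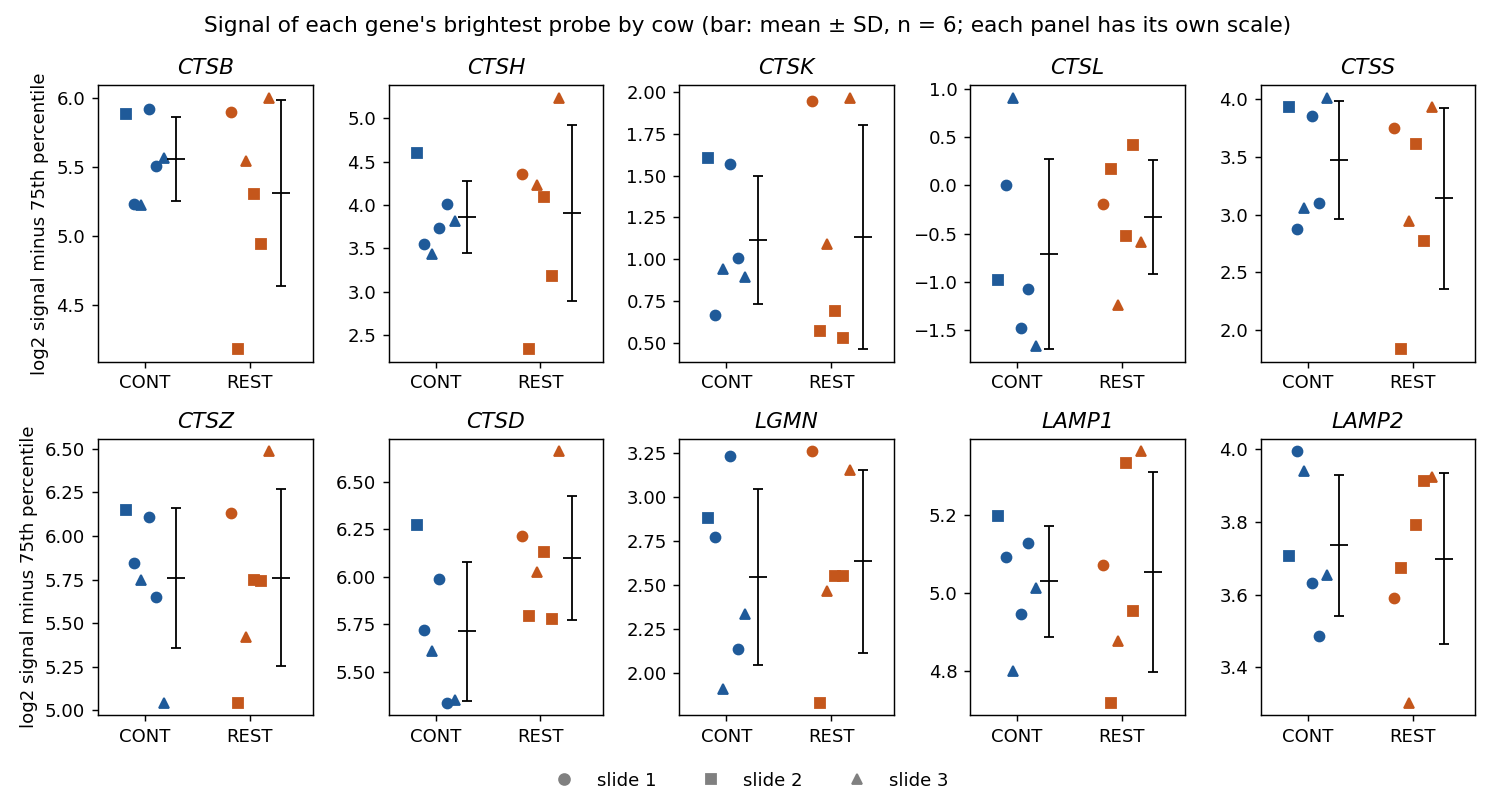
Signal of the brightest probe of each of the 10 genes (y axis, log2 processed signal minus the 75th percentile of the array, a separate scale per panel) for 6 CONT cows (blue) and 6 REST cows (orange), with marker shape for slide and bars for mean ± SD. The groups overlap in every panel, and all 6 REST cows lie above the CONT mean of 5.71 for CTSD.

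CTSD, the aspartic protease of the lysosome, had the lowest p among the 10 genes (NM_001166521). Its signal was 5.34 at the lowest, 5.66 at the median and 6.27 at the highest in CONT. In REST these values were 5.78, 6.08 and 6.66. All 6 REST cows were above the CONT mean, but CONT cow 9040 had the next highest signal after REST cow 1058, so the groups overlapped. The log2 difference was 0.39 (SE 0.21, 95% interval -0.07 to 0.84), a fold change (FC) of 1.31, with an exact permutation p of 0.0887. The other 2 CTSD probes differed by 0.30 and 0.31. With slide as a block the difference was 0.39, and within slides it was 0.53, -0.37 and 0.86 on slides 1, 2 and 3, so its direction was opposite on slide 2. Without CONT cow 9040, the only CONT cow on slide 2, it was 0.50 with an unadjusted limma p of 0.0302, still far from passing after adjustment.

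CTSB, an abundant cathepsin with endopeptidase and carboxypeptidase activity, had a lower mean in REST (NM_174031). In CONT the lowest, median and highest signals were 5.22, 5.54 and 5.92. In REST they were 4.18, 5.42 and 6.00. REST cow 0049 was more than 1 log2 unit below every CONT cow, while REST cow 1058 was the highest of the 12. The log2 difference was -0.24 (SE 0.29, 95% interval -0.88 to 0.39, exact permutation p = 0.489), and it was -0.07 with slide as a block. It was positive within slides 1 and 3 (0.34 and 0.38) and -1.07 within slide 2, which holds cow 0049. The only CONT cow on slide 2, cow 9040, was at 5.88, and REST cows 7043 (5.30) and 1015 (4.94) also lay below it. Over all slides the log2 difference was -0.018 without cow 0049 and -0.38 without cow 1058.

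CTSS, the cathepsin that trims the invariant chain of MHC class II in antigen presenting cells, also had a lower mean in REST (NM_001033615). Signals in CONT were 2.88, 3.48 and 4.02 at the lowest, median and highest cow. Those in REST were 1.84, 3.28 and 3.94. Cow 0049 again had the lowest signal, REST cow 1015 was just below the lowest CONT cow, and the other REST cows lay inside the CONT range. The log2 difference was -0.33 (SE 0.36, 95% interval -1.11 to 0.45, exact permutation p = 0.411), and within slides it was 0.47, -1.20 and -0.10. Without cow 0049 it was -0.072, and it was -0.65 with slide 1 left out and -0.030 with array weights.

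CTSH, an aminopeptidase, varied most between cows among the genes with several probes (NM_001034385). CONT cows ran from 3.44 through a median of 3.78 to 4.60. REST cows ran from 2.34 through 4.16 to 5.24. The REST group held both the lowest cow (0049) and the highest (1058), a 7.45-fold range. The log2 difference of 0.05 (SE 0.41, 95% interval -0.85 to 0.94, exact permutation p = 0.922) was small beside this spread. It was 0.20 with slide as a block, 0.59, -1.40 and 1.11 within the 3 slides and -0.14 with slide 1 left out, and a further CTSH probe gave -0.13, so no direction can be given.

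CTSK is the collagen-degrading cathepsin known from osteoclasts and also made by macrophages and fibroblasts (NM_001034435). Its signals were 0.67, 0.97 and 1.61 in CONT and 0.53, 0.89 and 1.97 in REST at the lowest, median and highest cow. REST cows 0078 and 1058 were above all CONT cows and REST cows 0049 and 1015 below all of them. The log2 difference was 0.02 (SE 0.30, 95% interval -0.64 to 0.67, exact permutation p = 0.935), and the other 2 probes gave 0.27 and 0.20. It was 0.20 with slide as a block and 0.16 as the mean over the probes, but turned to -0.18 with slide 1 left out and to -0.04 with array weights.

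CTSZ, a carboxypeptidase, also had nearly equal means (NM_001077835). CONT cows had signals of 5.04, 5.80 and 6.15, and REST cows of 5.04, 5.74 and 6.49, at the lowest, median and highest. The lowest cows of both groups, CONT 8027 and REST 0049, were level. The log2 difference was 0.00 (0.0048, SE 0.26, exact permutation p = 0.976), with an interval from -0.56 to 0.57. It was 0.11 with slide as a block and negative with quantile normalization (-0.06).

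LGMN, the asparaginyl endopeptidase (NM_174101), had signals of 1.91, 2.56 and 3.24 in CONT and of 1.83, 2.55 and 3.26 in REST at the lowest, median and highest cow. The ranges of both groups were nearly the same, with CONT cow 1024 and REST cow 0078 highest and CONT cow 0015 and REST cow 0049 lowest. The log2 difference was 0.09 (SE 0.28, 95% interval -0.53 to 0.71, exact permutation p = 0.762), and the other 2 probes both gave 0.07. With slide as a block it was 0.27.

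CTSL, a broadly expressed endopeptidase (NM_001083686), was represented by 1 probe. Its signal was -1.67 at the lowest, -1.03 at the median and 0.91 at the highest CONT cow. In REST these values were -1.24, -0.36 and 0.42. Here CONT cow 0015 was the highest of the 12 and CONT cow 8027 the lowest, and cow 0049 was the third highest. The log2 difference of 0.39 (SE 0.43, exact permutation p = 0.420) had the widest interval of the 10 genes, from -0.55 to 1.33. It was 0.71 without CONT cow 0015, 0.20 without CONT cow 8027, 0.24 without CONT cow 1024 or REST cow 1015 and 0.16 with array weights, and within slides it was 0.66, 1.00 and -0.53.

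The brightest probes of LAMP1 and LAMP2 varied least. LAMP1 (NM_001075124) had signals of 4.80, 5.05 and 5.20 in CONT and of 4.72, 5.01 and 5.36 in REST at the lowest, median and highest cow, a range of 1.56-fold over all 12. Its log2 difference was 0.02 (SE 0.15, 95% interval -0.31 to 0.35, exact permutation p = 0.848). The other LAMP1 probe gave 0.21 (SE 0.21), with a range of 2.30-fold over the 12 cows, and the mean over both probes gave 0.12. The brightest LAMP2 probe (NM_001113244) had signals of 3.49, 3.68 and 4.00 in CONT and of 3.30, 3.73 and 3.92 in REST. The REST cows again spanned nearly the whole CONT range. Its log2 difference was -0.04 (SE 0.16, 95% interval -0.37 to 0.30, exact permutation p = 0.781). The 2 LAMP2 probes for another RefSeq transcript, NM_001034570, gave -0.22 and -0.12, and with slide as a block the brightest probe gave -0.08.

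**Figure D2:**
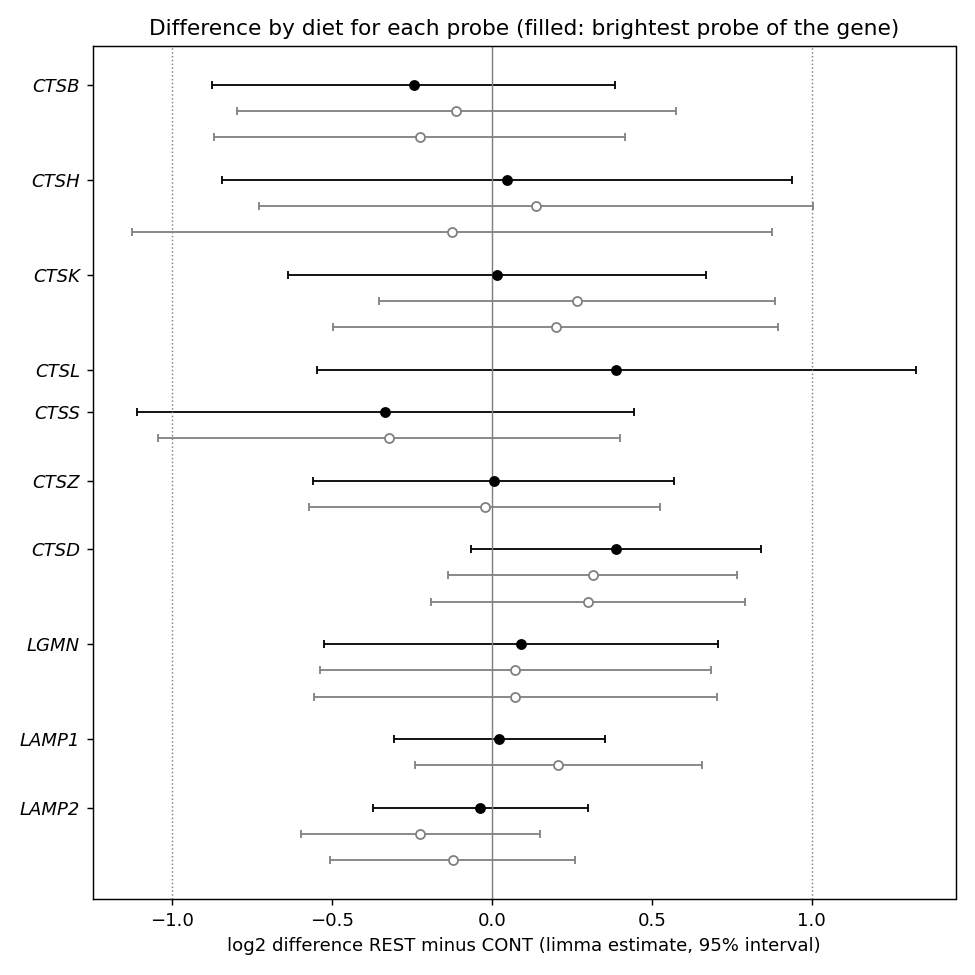
Log2 difference REST minus CONT (x axis) for each of the 25 probes, with the limma estimate as a point and its 95% interval as a line. Filled points mark the brightest probe of each gene, dotted lines mark a 2-fold change, and all 25 intervals include 0.

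Probes of the same gene mostly gave the same picture of the cows. Over the 12 cows the Pearson correlation between the 2 CTSS probes was 0.993, and those among the 3 CTSH probes were 0.918 to 0.970. For CTSB, CTSK, CTSZ and LGMN the lowest correlation between 2 probes of a gene was 0.742, and for CTSD it was 0.689. The 3 LAMP2 probes reached 0.607 to 0.908. The 2 LAMP1 probes disagreed (r = 0.305), so the order of the cows for LAMP1 depends on the probe.

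The SD over the 12 cows was larger than the difference between diets for 9 of the genes, and for CTSD it was about equal to it (SD 0.388 against a log2 difference of 0.387). Among 9083 named genes well above background on all 12 arrays, the median SD was 0.333. CTSL (SD 0.80), CTSH (0.74) and CTSS (0.66) had larger SDs than 92.2%, 89.9% and 85.9% of these genes. CTSK, CTSB and LGMN stood at 75.7%, 75.2% and 72.5%. LAMP1 and LAMP2 stood at 14.5% and 16.7%, with SDs of 0.20 and 0.21.

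The same few cows were high or low for most of the genes. REST cow 1058 had the highest signal of the 12 for 6 of the genes and was among the 3 highest for 9. REST cow 0049 had the lowest signal for 6 genes and was among the 3 lowest for 7. CONT cow 9040 and REST cow 0078 were each among the 3 highest for 6 genes. These cows came from both diets and all 3 slides.

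**Figure D3:**
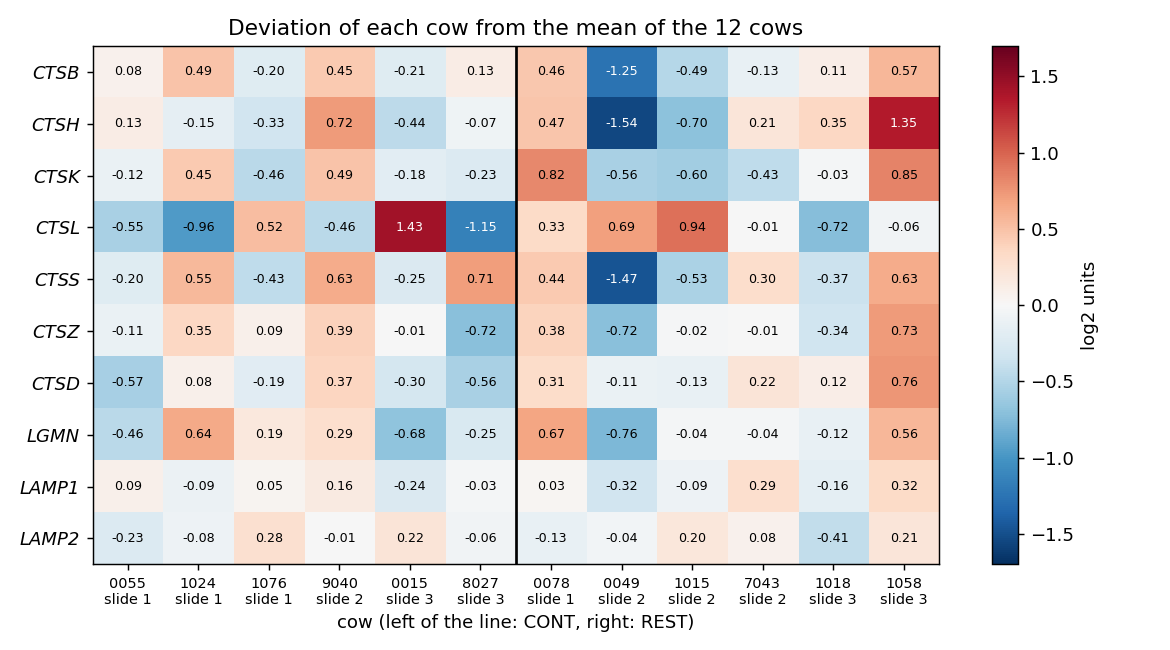
Deviation of each cow (columns, CONT left and REST right of the line) from the mean of the 12 cows, in log2 units, for the 10 genes (rows, brightest probe). Cow 1058 is above the mean in 9 rows and cow 0049 below it in 9, and CTSL is the row in which cow 0049 is above it.

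The 10 genes were also compared with each other across the 12 cows. Of the 45 pairs, 34 had a positive and 11 a negative Pearson correlation. By a permutation test with Benjamini-Hochberg adjustment over the 45 pairs, 16 passed an adjusted p of 0.05, all of them positive (r = 0.668 to 0.900), and 5 of these also passed by Spearman's rho. How often pairs of other named genes would pass was not computed, so the count cannot be read as particular to these genes. CTSB and CTSS had the strongest relation (r = 0.900, rho = 0.825, adjusted permutation p = 0.0054 and 0.0208). CTSB was also related to CTSH (r = 0.883, rho = 0.797, adjusted permutation p = 0.0045 and 0.0256) and to CTSK (r = 0.823, rho = 0.895, adjusted permutation p = 0.00645 and 0.0108). CTSZ and LGMN reached r = 0.783 and rho = 0.818 (adjusted permutation p = 0.0189 and 0.0208). CTSH and CTSK, the remaining pair of the 5, had r = 0.764 and rho = 0.832.

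Among the 6 papain-type genes, the 10 pairs without CTSL had correlations of 0.545 to 0.900 and 9 of them passed. The 5 pairs with CTSL had correlations of -0.564 to 0.053, and 0 passed. CTSL correlated negatively with 7 of the other 9 genes, most with CTSB (r = -0.564, rho = -0.671, adjusted permutation p = 0.097 and 0.069). Its highest correlation was with LAMP2 (r = 0.631, rho = 0.636, adjusted permutation p = 0.063 and 0.085). LAMP2 and CTSL were the genes with no passing pair, and LAMP1 passed only with CTSH (r = 0.775, by the brightest LAMP1 probe alone).

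The number of passing pairs depended on a few cows. It was 1 without REST cow 0049, 3 without REST cow 1058, 7 without REST cow 0078 and 8 without CONT cow 9040, and 11 to 19 without each of the other 8 cows. The correlations themselves stayed positive: over the 16 pairs the lowest r with any single cow left out was 0.515. With the 2 cows farthest from the median of the x gene left out, r was 0.704 for CTSB and CTSH, 0.725 for CTSB and CTSS and 0.932 for CTSB and CTSK. It fell to 0.225 for CTSH and CTSZ and to 0.496 for CTSH and LAMP1, which thus rest on those cows. All 16 pairs were positive within CONT (r = 0.285 to 0.914) and within REST (r = 0.728 to 0.965). Slides of 4 arrays were too small for a correlation, but after removing each slide's mean the 16 correlations were 0.649 to 0.917.

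**Figure D4:**
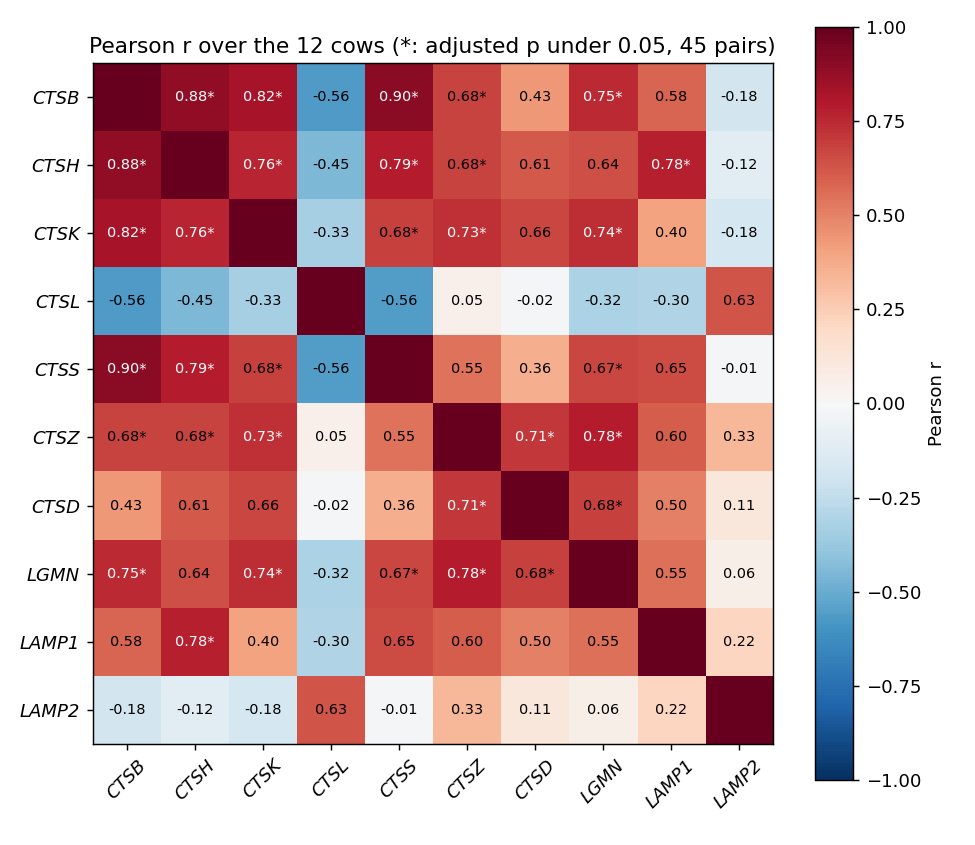
Pearson correlation over the 12 cows between each pair of the 10 genes (brightest probes), from blue (-1) to red (1), with asterisks for an adjusted permutation p under 0.05 over the 45 pairs. The asterisks fall on 16 positive pairs, and the row of CTSL holds none.

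The biopsies are mixed tissue, so the genes were set beside the mean log2 signal of 11 lists of cell type markers, giving 110 relations. In bulk tissue, fewer cells of a type and less RNA per cell cannot be told apart. By Pearson correlation 13 relations passed an adjusted permutation p of 0.05, and 6 of them passed by Spearman's rho as well. These 6 were CTSB, CTSH and CTSK with both the macrophage and the neutrophil lists. By mean log2 signal, cow 0049 was the lowest on both lists, and cows 1058, 9040 and 0078 were the highest on both. The 6 relations are therefore not separate results, and these values cannot tell the 2 cell types apart. How often other named genes would pass with these lists was not computed.

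CTSH had the closest relation to the macrophage and monocyte list, whose 9 measured markers include CD68, CD14, CD163 and CSF1R (r = 0.958, rho = 0.930, adjusted permutation p = 0.00165 and 0.00275). CTSB (r = 0.881), CTSS (0.819), CTSK (0.814), CTSZ (0.762) and LAMP1 (0.742) passed with the same list. The LAMP1 value is that of its brightest probe, and its other probe, which ordered the cows differently, was not used. With the 2 cows farthest from the median left out, r was 0.853 for CTSH, 0.784 for CTSK, 0.755 for CTSB and 0.657 for CTSS. It fell to 0.437 for CTSZ and to 0.400 for LAMP1. CTSD (r = 0.692) and LGMN (r = 0.714) missed the threshold.

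With the neutrophil list (S100A8, S100A9, S100A12, CXCR1, CXCR2 and MMP9), CTSH (r = 0.933), CTSB (0.927), CTSS (0.873) and CTSK (0.785) passed. For CTSB this relation was 0.837 without the 2 farthest cows, 0.886 within CONT, 0.984 within REST and 0.985 after removing slide means. Leaving out any single cow kept it between 0.846 and 0.944.

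The marker levels spread widely in both groups. The mean log2 signal of the 9 macrophage markers ran from -0.11 to 0.57 in CONT and from -0.78 to 1.23 in REST. Cow 0049 was the lowest and cow 1058 the highest. Summed as linear signal relative to the 75th percentile, the list ran from 14.3 to 34.0 in CONT and from 11.99 to 38.6 in REST, and 8 of its 9 markers exceeded background clearly on every array. The mean of the 6 neutrophil markers ran from -0.25 to 2.26 in CONT and from -1.84 to 2.15 in REST, with sums of 17.7 to 170.5 and 4.61 to 191.8. Cow 0049 was again the lowest, and the highest was CONT cow 9040 by the mean and REST cow 1058 by the sum. Of these 6 markers, 5 were well above background throughout. The groups overlapped on both lists. Of the 9 macrophage markers 4 had higher and 5 lower means in REST, and of the 6 neutrophil markers 4 were higher and 2 lower. Among markers well above background in all 12 cows, the largest difference was that of the scavenger receptor MSR1 among the macrophage genes (log2 difference 1.12, SE 0.63). The lowest macrophage marker by the same rule was CSF1R (-0.35, SE 0.39). Among the neutrophil genes MMP9 differed most (0.39, SE 0.35). CXCR1, well above background in 6 CONT and 5 REST cows, differed by -1.03 (SE 0.99). None of MSR1, CSF1R, MMP9 and CXCR1 passed an unadjusted p of 0.05. The part of these cell types in the cathepsin signals was not tested.

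CTSL and LAMP2 were related to other lists. CTSL rose with the 7 secretory epithelium markers, which include the casein genes CSN1S1, CSN1S2 and CSN3 (r = 0.744, rho = 0.727, adjusted permutation p = 0.0481 and 0.085). The correlation was 0.603 without the 2 farthest cows, 0.733 within CONT and 0.813 within REST. The mean log2 signal of these markers ran from 6.73 to 8.97 in CONT and from 7.13 to 9.32 in REST. CONT cow 8027 was lowest and REST cow 0049 highest. LAMP2 was lower where the 6 myoepithelium markers were higher (r = -0.821, rho = -0.776, adjusted permutation p = 0.0149 and 0.0665). CTSB with the fibroblast list passed by r (0.751), but r was 0.189 without the 2 farthest cows, so that relation rests on them.

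**Figure D5:**
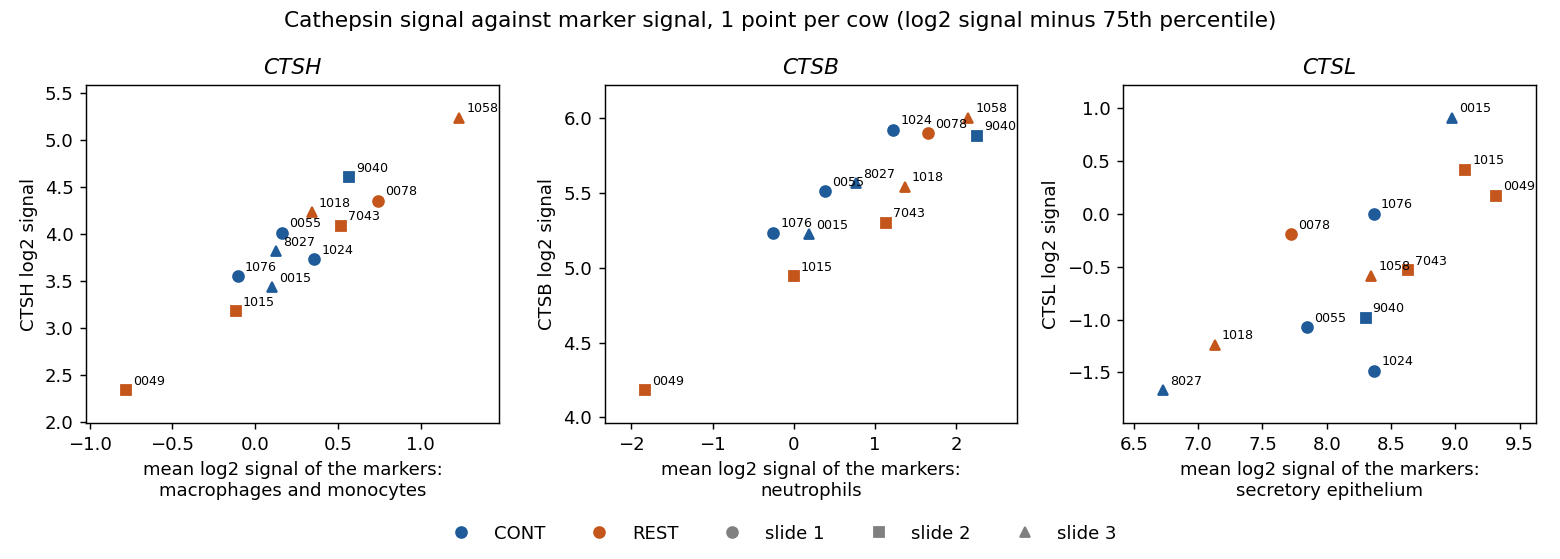
Signal of CTSH, CTSB and CTSL (y axes, log2 processed signal minus the 75th percentile) against the mean log2 signal of the macrophage and monocyte, neutrophil and secretory epithelium markers (x axes, same scale), 1 point per cow with the cow's number, colour for diet and shape for slide. CTSH rises with the macrophage markers from cow 0049 to cow 1058 (r = 0.958), and cow 0049 has the highest secretory marker signal of the 12.

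The same values were set beside the brightness of the arrays. Of 39 relations with the array's 75th percentile intensity, its share of probes well above background and its negative controls (10 genes and 3 marker lists), none passed an adjusted permutation p of 0.05. The closest were CTSB with the 75th percentile intensity (r = 0.752, rho = 0.678, adjusted permutation p = 0.0811 and 0.365) and the secretory epithelium markers with it (r = -0.761, rho = -0.720). For CTSB r was 0.355 without the 2 farthest cows, 0.149 within CONT, 0.935 within REST and 0.654 after removing slide means, and it was 0.551 to 0.842 with single cows left out. For the secretory epithelium markers r was -0.771 within CONT and -0.785 within REST. Cow 0049 had the lowest 75th percentile intensity of the 12 (387). The part of array brightness in these values was not tested.

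The genes most like each member over the 12 cows were sought by Pearson correlation as a description, among the 8991 of the 9083 genes above that had no missing value and are not members. The chemokine receptor CCR1 was most like CTSB (r = 0.971) and was also close to CTSS (0.934). CD68, which is in the macrophage list above, was most like CTSK (0.913), so this is not separate from the relation of CTSK to that list. The leaders were MBOAT7 for CTSH (0.972), CLECL1 for CTSS (0.973), TSTD3 for CTSZ (0.936) and RASGRP2 for CTSD (0.884). COMMD4 led for LGMN (0.942), with BECN1, an autophagy gene, next (0.929). For CTSL the leader was F8, coagulation factor VIII (0.888), for LAMP1 it was CYB5R1 (0.926), and for LAMP2 it was the mitochondrial fission factor MFF (0.916). The V-ATPase subunit ATP6V0D1 ranked next after TSTD3 for CTSZ (0.921). These correlations are the highest of many and carry no test.

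The rest of the lysosomal system was described through 9 lists holding 88 measured genes. Of these, 39 had a higher and 49 a lower mean in REST, with a median log2 difference of -0.04 and 0 adjusted calls by limma. Unadjusted, 2 of the 88 passed p under 0.05 (2.27%, against 2.64% of named genes), and both were higher in REST. SQSTM1, the autophagy receptor p62, differed by 0.69 (SE 0.26, unadjusted p = 0.0217). ATP6V0A1, a subunit of the proton pump that acidifies lysosomes, differed by 0.42 (SE 0.17, unadjusted p = 0.0264), but was well above background in only 3 CONT and 5 REST cows. Its value carries that limit, and it was named because it passed.

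All 5 other measured cathepsins (CTSA, CTSC, CTSF, CTSV and CTSW) had lower means in REST, and 0 of them passed. CTSC, which activates the serine proteases of granulocytes, had the largest difference (-0.63, SE 0.68). Of the 4 measured cathepsin inhibitors 3 were lower, CST6 most (-0.31, SE 0.24), and SERPINB1 was higher (0.25, SE 0.33). Of 10 other lysosome membrane proteins 6 were higher, the cystine exporter CTNS most (0.45, SE 0.47), and LAPTM4B was the lowest of the other 4 (-0.13, SE 0.18). Of 15 V-ATPase subunits 11 were lower, with ATP6V1G1 at -0.29 (SE 0.15) and ATP6V0B at 0.12 (SE 0.20) at the extremes among those well above background on all arrays. Of 31 hydrolases and activators 14 were higher and 17 lower, and the β-glucuronidase GUSB was the highest (0.26, SE 0.16) of those well above background on all arrays.

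Of the 4 measured genes that sort lysosomal enzymes 3 were higher and 1 lower, with GNPTAB, which makes the mannose 6-phosphate tag, at 0.26 (SE 0.28) and the receptor IGF2R at -0.08 (SE 0.14). The transcription factors of lysosomal biogenesis did not share a direction. TFEB was at 0.02 (SE 0.16), TFE3 at -0.29 (SE 0.21) and MITF at 0.29 (SE 0.16). Of 13 autophagy genes 9 were higher, with ULK1, a kinase that starts autophagy, at the other end (-0.31, SE 0.49). Both measured MHC class II genes were lower, CD74, the invariant chain that CTSS cuts, at -0.28 (SE 0.42) and BOLA-DMB at -0.29 (SE 0.25). None of the other cathepsins, inhibitors, sorting genes, transcription factors or MHC class II genes passed an unadjusted p of 0.05.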

How the data were processed

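One-color Agilent arrays of the bovine 4 × 44K design were used, with Cy3 as the dye and 100 ng of RNA from each biopsy as the starting amount. Each cow is 1 sample. The values used are the linear intensity values that the authors deposited (Agilent Feature Extraction 11.0.1.1, processed signal, background corrected). The deposited table of processed values held the same intensity values (largest difference 0). Control spots were left out and outlier spots set missing. Log2 values minus the 75th percentile of each array, averaged per probe, were tested with limma 3.58.1 (R 4.3.3, lmFit and eBayes). Benjamini-Hochberg adjustment over all probes was used in place of the Westfall-Young adjustment named in the methods, which controls a different error rate. The paper reports differentially expressed genes between these groups, whereas no probe passed here. The cause of this gap was not tested. Correlations used 100000 permutations (Python 3.11.15). The script was tested on simulated data. Symbols came from RefSeq accessions without version (assembly ARS-UCD2.0). The array was designed on another build, so no coordinates are given. Alternatives were quantile normalization, normexp (offset 50), the series table, a filter on dim probes, outlier spots kept, slide as a block, an intensity trend, array weights, the mean over a gene's probes, slide 1 left out and each cow left out in turn.

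The members and lists were chosen with earlier results of these data known. Named from each list were the genes with the largest difference in each direction among those well above background on all 12 arrays, with TFEB, TFE3 and MITF in addition. From each of the 11 marker lists, the summed level of the measured markers and the gene with the largest difference were named by the same rule. CSF1R, CXCR1, KRT19 and CALCR were named in addition. A search of promoter sequences for motifs was not run, since no promoter sequences were used here. Not every gene named by this rule is reported here.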

Additional observations from a re-analysis of the deposited data

Results flagged for a closer look

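No cow stood apart from the others of its group for any of the 10 genes by Dixon's test (0 of 20 groups of 6 cows, where chance gives about 1 in 20).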

How the results depend on the processing

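None of the 10 genes was called under any of the alternatives with limma. Over all probes the count of adjusted calls was also 0 under each alternative except the mean over a gene's probes, where it was not computed. The count of genes at an unadjusted p under 0.05 was 0 to 1 when single cows were left out, the 1 being CTSD without CONT cow 9040. CTSB, CTSD, CTSL and CTSS kept their sign under every alternative, CTSB between -0.38 and -0.018 (the latter without REST cow 0049), CTSD between 0.27 and 0.50, CTSL between 0.16 and 0.71 and CTSS between -0.65 and -0.030. Differences near 0 turned: CTSZ to -0.061 and LAMP1 to -0.0053 with quantile normalization, CTSK to -0.041 and CTSZ to -0.032 with array weights, CTSZ to -0.0091 with the mean over its probes, and, with slide 1 left out (chosen after seeing the data), CTSH to -0.14, CTSK to -0.18 and the median of the 10 genes to -0.0018. With each cow left out, the ranges were -0.11 to 0.14 for the median, -0.22 to 0.36 for CTSH, -0.15 to 0.14 for CTSK, -0.14 to 0.15 for CTSZ, -0.037 to 0.25 for LGMN, -0.039 to 0.090 for LAMP1 and -0.086 to 0.043 for LAMP2. Outside these ranges lay the median (0.16), CTSK (0.20) and LGMN (0.27) with slide as a block, CTSK with slide 1 left out (-0.18), and LAMP1 (0.12), LAMP2 (-0.13) and CTSK (0.16) as means over their probes. The count of passing correlations was 1 to 19 with each cow left out, 17 after removing diet means, 19 with quantile normalization and 17 after removing slide means, the last and the left-out cows chosen after seeing the data. The cause was not tested. No paired analysis was made, because every sample is a different cow and no label pairs a CONT cow with a REST cow. Precision is limited by 6 arrays per group.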

Other observations

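Among the other marker lists no marker passed after adjustment over all probes with limma, and 6 of 48 (12.5%) passed an unadjusted p of 0.05, against 2.64% of all named genes. The lists were chosen with earlier results of these data known, and 3 of the 6 came from the fibroblast list. The share is therefore a description and not independent evidence. Of 7 fibroblast markers 5 were lower in REST, and LUM (log2 difference -0.84, SE 0.24, unadjusted p = 0.0042), COL1A1 (-0.72, SE 0.31) and COL1A2 (-0.65, SE 0.27), which encode lumican and the chains of type I collagen, were 3 of these. The summed signal of the 7 markers, linear and relative to the 75th percentile, ran from 50.8 to 67.3 in CONT and from 24.0 to 70.6 in REST. The lowest REST cows, 0049, 1015 and 7043, were all on slide 2, where CONT cow 9040 was at 58.0. Without cow 0049 (chosen after seeing the data) the difference in the mean of the fibroblast list was -0.31 in place of -0.45. That of COL1A1 was then -0.53 and that of COL1A2 -0.44, while LUM stayed between -1.01 and -0.72 with any single cow left out. All 5 endothelial markers were higher in REST, VWF, the clotting factor carrier, most (0.79, SE 0.30, unadjusted p = 0.0227), with sums of 2.42 to 9.85 and 7.67 to 13.4. CONT cow 8027 stood apart here at 2.42, the other 5 CONT cows lying between 8.09 and 9.85, and without it (chosen after seeing the data) the difference in the mean of the list was 0.18 in place of 0.51, and that of VWF 0.50. All 7 secretory epithelium markers had higher means in REST, CSN1S1 most (0.37, SE 0.27), and 0 of them passed, with sums of 1191 to 4263 and 1728 to 5605. Without cow 8027 the difference in the mean of this list was -0.0012 in place of 0.27.

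The T cell marker CD3D differed by 0.60 (SE 0.26, unadjusted p = 0.040), while 4 of the 6 T cell markers were lower, with sums of 15.6 to 27.2 in CONT and 17.3 to 32.5 in REST. B and plasma cell markers summed to 4.24 (cow 8027, the next CONT cow at 8.08) to 11.3 in CONT and 5.40 to 13.4 in REST, with MZB1 at 0.24 (SE 0.33). Here MS4A1 was higher at an unadjusted p of 0.0249, but it was well above background in 0 CONT cows and 4 REST cows, so no fold is given. Luminal markers summed to 73.1 to 176.7 and 105.7 to 182.1. Of the 5 luminal markers 3 were higher in REST and 2 lower, with KRT18 at -0.49 (SE 0.56) and KRT19 at 0.48 (SE 0.30). Myoepithelial markers summed to 73.4 to 187.8 (cow 0055, the next CONT cow at 94.8) and 67.8 to 115.8 (OXTR at -0.50, SE 0.25). Adipocyte markers summed to 0.69 (cow 8027, the next CONT cow at 1.71) to 3.73 and 2.32 to 4.28, with PPARG at 0.64 (SE 0.40). Only PPARG of the 5 was well above background in all 12 cows. The osteoclast list, read without CTSK, held ACP5 (-0.28, SE 0.53) and CALCR (1.09, SE 0.61), and neither marker passed unadjusted. CALCR was well above background in 5 CONT and 6 REST cows. The mean log2 signal of this list was higher in REST by 0.40. Its sums were 11.6 to 76.8 in CONT (cow 1024, the next CONT cow at 37.0) and 7.46 to 40.5 in REST. No relation of a member with this list passed.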
